A study of Homo sapiens with 24 samples.

Results

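DHRS2 and 8 other genes of the short-chain dehydrogenase/reductase (SDR) family were followed through 24 HepG2 libraries. The group held 9 of the 26475 gene symbols counted: DHRS2, the 7 DHRS relatives DHRS1, DHRS3, DHRS4, DHRS7, DHRS11, DHRS12 and DHRS13, and HSD17B2. DHRS2 was chosen by its measured log2 fold changes, since it rose with every inhibitor treatment, so its values against the controls describe the choice and carry no test here. The comparison asked of the relatives was whether they moved with it. HSD17B2 was included with its values in the same comparisons known and is likewise described, not tested, against the controls. HepG2 is a human liver cancer cell line. Without interferon the cells were given the solvent DMSO, 50 nM of ABBV-075, or ABBV-744 at a dose of either 50 nM or 500 nM. The other groups were given interferon gamma (IFNγ) alone, or IFNγ together with each of the same 3 inhibitor treatments, with 3 libraries in each of the 8 groups. ABBV-075 blocks both bromodomains of the BET proteins, which read acetylated histones, and ABBV-744 prefers the second bromodomain. The study's methods give 12 h for ABBV-075 at 50 nM and list DMSO among treatments of 24 h, so ABBV-075 and its control may differ in time as well. The times of the groups with ABBV-744 or IFNγ and the dose of IFNγ were not given in the sources used here, and no comparison is known to be matched for time. The replicates are described as experimental triplicates of the same cell line, and nothing states how far they were grown apart, so the p-values measure the spread between these samples.

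SDR enzymes bind NAD or NADP in a shared nucleotide-binding fold and oxidise alcohols or reduce carbonyl groups on steroids, retinoids, sugars and fatty acid derivatives. The liver is a main site of this chemistry. DHRS2, also called Hep27, is a carbonyl reductase that was first described in HepG2 cells. DHRS3 reduces retinaldehyde to retinol, DHRS4 is a peroxisomal reductase of retinal and other carbonyls, DHRS7 is a membrane-bound reductase, and DHRS11 reduces steroids and small carbonyls. DHRS1 is bound to the endoplasmic reticulum, and the substrates of DHRS12 and DHRS13 are less well known. HSD17B2 oxidises and so inactivates estradiol and testosterone.

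In GRCh38, DHRS2 lies on the plus strand of chromosome 14 (chr14:23630115-23645639). DHRS4 starts 324 kb further along the same strand (chr14:23953734-23969279). DHRS1 (chr14:24290598-24299780) and DHRS7 (chr14:60144119-60169856) are on the minus strand of chromosome 14. DHRS3 is on chromosome 1 (chr1:12567910-12618210, minus), DHRS12 on chromosome 13 (chr13:51767993-51804163, minus), HSD17B2 on chromosome 16 (chr16:82035004-82098534, plus), and DHRS11 (chr17:36591879-36600804, plus) and DHRS13 (chr17:28897781-28903079, minus) on chromosome 17. Of the 7847 stretches of 50 bases in the annotated DHRS2 transcripts, 0 occurred in a transcript of any other member. No read of that length could thus match DHRS2 and another member exactly, and alignment with mismatches was not examined. DHRS4 shared 914 of its 2437 stretches with its neighbouring copy DHRS4L2 and 248 with DHRS4L1. Reads that align to several places were left out by the counting, so the values of DHRS4 and its copies are uncertain.

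The 250 bases before the annotated start differed between DHRS2 and its relatives. The window of DHRS2 (chr14:23629865-23630114, plus strand) and the window before the outermost start of DHRS3 (chr1:12618211-12618460, minus strand), the relative that fell furthest, are shown from RefSeq (GRCh38.p14), read along the gene's strand. The capitals mark every CG and, on either strand, TATAAA (the core of a TATA box), CCAAT (the CCAAT box), GGGCGG (the GC box) and CACGTG (an E-box), which can overlap each other and a CG.
DHRS2: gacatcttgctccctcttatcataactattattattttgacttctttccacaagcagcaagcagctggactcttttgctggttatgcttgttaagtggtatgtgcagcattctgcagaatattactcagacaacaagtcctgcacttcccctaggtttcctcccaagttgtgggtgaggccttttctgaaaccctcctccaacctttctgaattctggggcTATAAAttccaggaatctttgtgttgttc
DHRS3: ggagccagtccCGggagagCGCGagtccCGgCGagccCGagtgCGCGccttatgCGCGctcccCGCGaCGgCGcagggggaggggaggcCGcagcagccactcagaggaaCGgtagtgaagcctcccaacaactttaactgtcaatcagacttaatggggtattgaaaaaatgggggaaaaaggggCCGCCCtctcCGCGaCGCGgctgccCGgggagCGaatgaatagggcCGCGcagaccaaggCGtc
The DHRS2 window held 0 CG dinucleotides, a GC content of 43.2% and a TATAAA that began 29 bases before the start. It held none of the other 3 motifs. Among all 35116 promoters of the RefSeq table, 6.06% had no CG in the same window, 10.7% had a TATAAA on either strand, and 1.83% had a TATAAA and no CG. A TATAAA on the gene's strand that began 25 to 35 bases before the start was found in 2.17%. The 11 windows of 6 relatives held 3 to 34 CG dinucleotides, against a median of 11 over all promoters, and 0 of the 11 held TATAAA. The GC box was found in 7 of the 11, and in 42.6% of all promoters. The 11 are not all separate promoters, since 2 windows of DHRS12 (chr13:51804164-51804413 and chr13:51804163-51804412) almost coincide. Among the 6 relatives, only DHRS13 had the GC box in no window. CCAAT, in 32% of all promoters, and CACGTG, in 6.34%, were found in none of the members' windows. A match in such a window is a description of the letters and not a measured binding site. DHRS7 and HSD17B2 are named only.

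**Figure D1:**
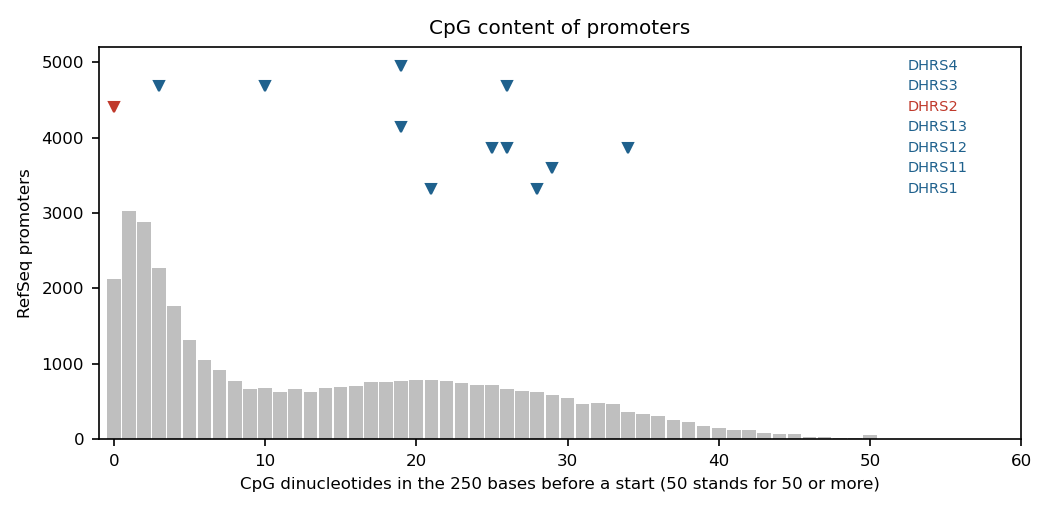
CG dinucleotides (CpG) in the 250 bases before the start of each of 35116 RefSeq promoters (grey bars, number of promoters on the left axis) with the windows of the named members as triangles, whose height has no meaning. DHRS2 (red) sits at 0, and the windows of its relatives (blue) lie between 3 and 34.

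The libraries held 23037861 to 28925049 reads, of which 12% to 16.8% fell on the annotated strand of a gene and 56% to 69.4% aligned to several places. Each library held 2978982 to 4304103 counts on genes. Levels are given as CPM, a gene's counts scaled to the library's total, with totals adjusted across all 24 libraries by the trimmed mean of M-values (TMM). Hepatocyte markers were present in all 24 libraries, with albumin (ALB) at 1879 to 3555 CPM and APOB at 4681 to 13769 CPM. The leukocyte marker PTPRC and the fibroblast marker COL3A1 had 0 counts in every library, and COL1A1, PECAM1 and VWF had at most 5. HEXIM1, which rises when BET proteins are blocked, was higher with ABBV-075 (log2 fold change 1.41, edgeR adjusted p = 6.81e-06) and ABBV-744 at 500 nM (0.74, edgeR adjusted p = 1.89e-05), but did not pass with ABBV-744 at 50 nM (0.29, edgeR adjusted p = 0.0816). Added to IFNγ, ABBV-075 and ABBV-744 at 500 nM raised HEXIM1 by 1.51 and 0.58 (edgeR adjusted p = 2.47e-14 and 0.000121), and ABBV-744 at 50 nM gave 0.09 (edgeR adjusted p = 0.565). IRF1, a target of interferon, rose with IFNγ (log2 fold change 4.26, edgeR adjusted p = 4.53e-27). In bulk RNA, fewer cells with a transcript and less of it per cell cannot be told apart.

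Per kilobase of annotated exon DHRS2 was the most abundant member in every group. It stood at 286 CPM per kilobase in the DMSO libraries, where the 8 other members ranged from 0.94 (DHRS12) to 10.5 (DHRS3). DHRS2 measured 2239, 2123 and 2093 CPM in the DMSO libraries and 14116, 14282 and 16844 CPM with ABBV-075. With ABBV-744 at 50 nM it measured 7010, 7242 and 6832 CPM. With ABBV-744 at 500 nM it measured 9923, 10912 and 10447 CPM. The 4 groups without IFNγ did not overlap, and they ranked DMSO, ABBV-744 at 50 nM, ABBV-744 at 500 nM and ABBV-075. With ABBV-075 the single gene took 1.43% to 1.62% of all counts on genes, against 0.217% to 0.225% with DMSO.

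The order was the same in the presence of IFNγ. IFNγ alone gave 2311, 2368 and 2315 CPM of DHRS2. Adding ABBV-075 gave 14063, 15271 and 15060 CPM. Adding ABBV-744 gave 5450, 5371 and 5616 CPM at 50 nM and 7942, 8013 and 8334 CPM at 500 nM. Of neighbours in the ordering of all 8 groups, only ABBV-075 with and without IFNγ overlapped.

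**Figure D2:**
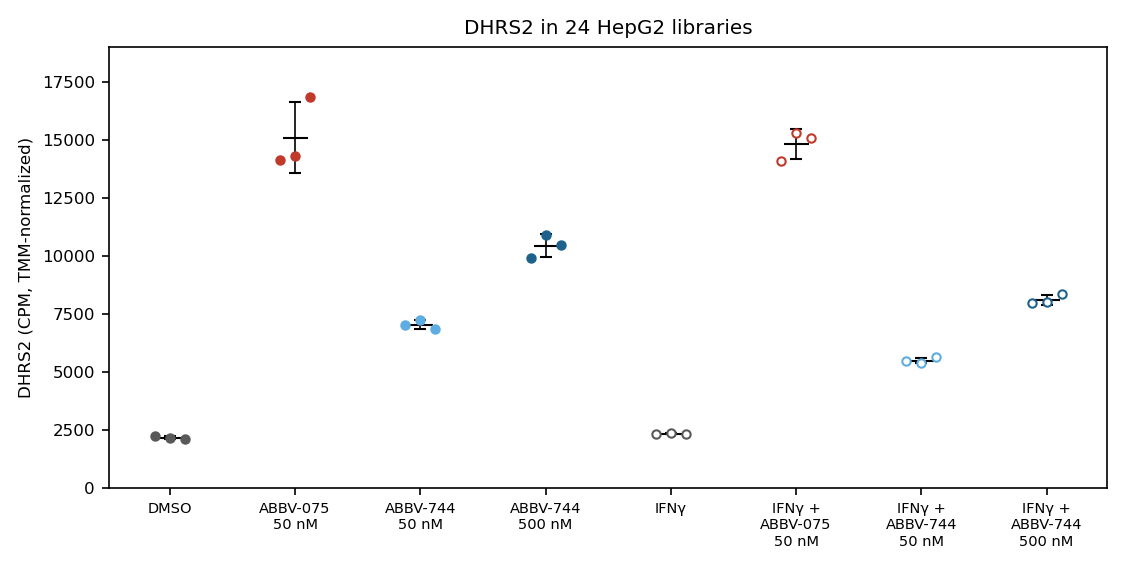
DHRS2 in CPM (TMM-normalized) in each of the 24 libraries, by treatment group. Points are libraries (open with IFNγ), the horizontal mark is the group mean and the bars are 1 SD (n = 3); the DMSO and IFNγ groups lie between 2093 and 2368 CPM and every inhibitor library lies at 5371 CPM or above.

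As the choice of the gene implies, the fitted differences of DHRS2 from its controls were all positive. The log2 fold change was 2.79 with ABBV-075 (SE 0.14, 6.91-fold), 1.72 with ABBV-744 at 50 nM (SE 0.09, 3.3-fold) and 2.28 with ABBV-744 at 500 nM (SE 0.09, 4.87-fold). Added to IFNγ and set against IFNγ alone, the same treatments gave 2.66 (SE 0.07), 1.25 (SE 0.07) and 1.78 (SE 0.08). The 3 comparisons without IFNγ share the DMSO libraries and the 3 with IFNγ share the IFNγ libraries. Over the 10813 genes tested in all 6 comparisons, DHRS2 had the highest mean log2 fold change, 2.08, and the next gene, CCDC144NL, had 1.77. The study called genes past 2 thresholds, a log2 fold change of at least 1.5 and an adjusted p of at most 0.05. DHRS2, chosen by these values, reached the fold threshold in 5 of the 6, and its 1.25 with ABBV-744 at 50 nM and IFNγ fell short of it. The share of all genes past both upwards was 1.09%, 0.09% and 0.027% without IFNγ and 2.41%, 1.94% and 1.29% with it, in the same order of treatments. No gene passed both upwards in all 6.

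The compounds and doses were then compared directly, in 4 comparisons of DHRS2. The choice did not rank genes by these, but each is a difference between comparisons that the choice did use, on the same libraries. They are thus not independent of it. At the matched dose of 50 nM, DHRS2 was 2.13-fold higher with ABBV-075 than with ABBV-744 (95% interval 1.73 to 2.62, log2 fold change 1.09, SE 0.13, edgeR adjusted p = 0.000561). With IFNγ present the difference was 2.79-fold (95% interval 2.48 to 3.15, log2 fold change 1.48, SE 0.09, edgeR adjusted p = 2.8e-18). In both comparisons all 3 ABBV-075 libraries lay above all 3 ABBV-744 libraries. Of all genes tested, 40.8% differed between the compounds without IFNγ and 33.7% with it, 21.4% and 16.7% upwards with ABBV-075 and 19.4% and 17% downwards.

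Between the doses of ABBV-744, DHRS2 was 1.51-fold higher at 500 nM than at 50 nM when IFNγ was present (95% interval 1.34 to 1.69, log2 fold change 0.59, SE 0.08, edgeR adjusted p = 2.9e-05), where 1.7% of genes differed and 1.41% were higher at 500 nM. Without IFNγ the ratio was 1.48 (95% interval 1.26 to 1.74, log2 fold change 0.56, SE 0.11). The difference did not pass (edgeR adjusted p = 0.089), in a comparison where 0.0274% of genes were called and 0 of them upwards. Same-numbered libraries of the 2 doses deviated together for replicates 1 and 2 (correlations 0.39 and 0.50) and barely for replicate 3 (0.10). Of 20 pairs of groups, this was the 1 with all 3 over 0.1. With the replicate number as a block the log2 fold change of 0.56 passed (edgeR adjusted p = 2.55e-16), where all genes called went from 3 to 320. It also passed with DESeq2 (0.57, adjusted p = 6.36e-07).

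With IFNγ alone DHRS2 stood at 1.08 times its level with DMSO (95% interval 0.995 to 1.18, log2 fold change 0.11), which did not pass (edgeR adjusted p = 0.393). The 3 IFNγ libraries lay just above the 3 DMSO libraries, but how many of all genes separate in this way was not counted. IFNγ changed 3.46% of all genes and 0 of the 7 DHRS relatives by edgeR and by DESeq2, and 0 of the 7 had an unadjusted p under 0.05.

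The rise of DHRS2 was also compared between cells with and without IFNγ, as an interaction over 4 groups. This too is a difference between comparisons that the choice used. For ABBV-075 the difference of the log2 fold changes was -0.15 (95% interval -0.42 to 0.13, edgeR adjusted p = 0.835). For ABBV-744 the rise was smaller with IFNγ, by a log2 difference of -0.50 at 50 nM (SE 0.09, edgeR adjusted p = 5.88e-05) and -0.48 at 500 nM (SE 0.10, edgeR adjusted p = 3.68e-04). These 2 interactions were called for 51.6% and 33.5% of all genes, 26.5% and 15% downwards, and that of ABBV-075 for 0.0347%. Replicates were furthest apart with ABBV-075 alone. The chi-square of counts over genes, per degree of freedom, was 16.6 between its replicates 1 and 3 and 8.37 between 2 and 3. It was at most 6.73 in the other groups. Whether this spread lowered the share called for ABBV-075 was not tested, and the interactions of the compounds were not compared with each other. The medians over all genes with ABBV-744 were -0.14 and -0.09. They moved with base composition: at 50 nM the fifth of genes with the lowest GC content had a median interaction of 1.07 and the fifth with the highest had -0.60, and at 500 nM these were 0.82 and -0.34. With a correction for GC content the interactions of DHRS2 were -0.11 (edgeR adjusted p = 0.385) and -0.14 (edgeR adjusted p = 0.241) and no longer passed. At 500 nM the call was also lost without replicate 2 (-0.40, edgeR adjusted p = 0.0727).

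The 7 DHRS relatives did not follow DHRS2. With ABBV-075 against DMSO, 3 of the 7 passed the test, DHRS1, DHRS3 and DHRS7, and all 3 fell; 39.3% of all genes passed, 19.8% upwards and 19.6% downwards. The median log2 fold change of the 7 was -0.26, against 0.03 over all genes. With ABBV-744, 1 of 7 rose at 50 nM, where 18.9% of genes were called and 8.81% rose, and 0 of 7 changed at 500 nM, where 15.3% were called. At 500 nM 1 relative had an unadjusted p under 0.05, and DESeq2 also called 0 of 7. With 7 genes, none of these counts can be told apart from the share of all genes called. The highest log2 fold change of a relative against DMSO was 0.60 (DHRS12 with ABBV-744 at 500 nM, 95% interval -0.08 to 1.28, not passing).

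DHRS3, the retinaldehyde reductase, fell furthest of the relatives. It measured 45, 32.6 and 33.4 CPM with DMSO and 14.5, 12.3 and 17.1 CPM with ABBV-075, and the groups did not overlap. Its log2 fold change was -1.35 (SE 0.19, 0.391-fold, edgeR adjusted p = 0.00026). With ABBV-744 it measured 33.1, 35.8 and 38.7 CPM at 50 nM and 31.4, 40.7 and 23.9 CPM at 500 nM, overlapping DMSO at both doses. The intervals of its fold change there were 0.798 to 1.21 and 0.688 to 1.09. At the matched dose DHRS3 was lower with ABBV-075 than with ABBV-744, with a log2 fold change of -1.30 (SE 0.18, edgeR adjusted p = 0.00097). That comparison moved with base composition, with medians of 0.75 in the fifth of genes lowest in GC content and -0.36 in the highest. Against DMSO these medians were 0.44 and -0.13 with ABBV-075, and -0.32 and 0.25 with ABBV-744 at 50 nM. With the GC correction the difference of DHRS3 between the compounds was -0.91 (edgeR adjusted p = 0.000868). DHRS3 and DHRS2 thus differed from each other in direction with ABBV-075.

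DHRS1 showed the same split between the compounds without IFNγ. It measured 22.5, 21.1 and 14.8 CPM with DMSO and 10.1, 10.3 and 11.7 CPM with ABBV-075, without overlap (log2 fold change -0.88, SE 0.21, edgeR adjusted p = 0.00616). With ABBV-744 at 50 nM it measured 21.5, 21.4 and 20.6 CPM, inside the DMSO range, and it was lower with ABBV-075 than with ABBV-744 at this dose (log2 fold change -0.99, SE 0.18, edgeR adjusted p = 0.00296). With the GC correction that difference of DHRS1 was -0.91 (edgeR adjusted p = 0.00131). When IFNγ was present the difference of DHRS1 between the compounds did not pass (-0.25, edgeR adjusted p = 0.373). Neither did its fall with ABBV-075 added to IFNγ (-0.48, edgeR adjusted p = 0.0517), although that fall passed in 4 alternative settings (-0.63 to -0.30 over all of them). Of the 7 relatives, DHRS1 and DHRS3 differed between the compounds at 50 nM without IFNγ, both downwards with ABBV-075, against 40.8% of all genes called there and 19.4% downwards.

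DHRS7 fell with ABBV-075. It measured 18, 14.7 and 15.3 CPM with DMSO and 10.6, 10.3 and 9.02 CPM with ABBV-075 (log2 fold change -0.69, SE 0.19, edgeR adjusted p = 0.0143). ABBV-744 gave 10.7, 11 and 10.8 CPM at 50 nM and 11.6, 11.9 and 12.4 CPM at 500 nM. None of these groups overlapped DMSO, and the differences of the ABBV-744 groups from it did not pass (edgeR adjusted p = 0.0543 and 0.162). Under the alternative settings the fall at 50 nM passed in 3 and kept its direction in all (-0.64 to -0.45). The fall at 500 nM passed in 0 of them. The call with ABBV-075 was lost with DESeq2 (adjusted p = 0.0655) and without DMSO replicate 1 (edgeR adjusted p = 0.0656).

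DHRS4, the relative nearest to DHRS2 on the chromosome, was the only one to rise in a comparison. It measured 22.5, 16.2 and 15.5 CPM with DMSO and 24.5, 24.2 and 27.6 CPM with ABBV-744 at 50 nM (log2 fold change 0.51, SE 0.17, edgeR adjusted p = 0.0372). That call was lost in 7 of the other settings, among them DESeq2 (adjusted p = 0.116) and the replicate block (edgeR adjusted p = 0.0603), and without DMSO replicate 2, DMSO replicate 3 or ABBV-744 50 nM replicate 3. At 500 nM DHRS4 measured 20.4, 28.5 and 17.5 CPM and overlapped DMSO. With ABBV-075 it measured 16.9, 18.7 and 21.3 CPM, a log2 fold change of 0.05 with a 95% interval of -0.38 to 0.48. Its copy DHRS4L2 also rose with ABBV-744 at 50 nM (log2 fold change 0.59, edgeR adjusted p = 0.0211), and these are the copies that share sequence. DHRS4L1 had at most 10 counts in a library and was not tested.

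DHRS11, DHRS12 and DHRS13 passed the test in none of the comparisons with DMSO. DHRS11 lay between 13.8 and 35.9 CPM over all 24 libraries. DHRS12 (2.38 to 6.33 CPM, 8 to 24 counts) and DHRS13 (3.66 to 11.9 CPM, 11 to 37 counts) were thinly counted, and their intervals are wide. With ABBV-075 the 95% interval of the fold change was 0.878 to 2.42 for DHRS12 and 0.642 to 1.63 for DHRS13. Both intervals include no change and leave room for a rise or a fall.

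**Figure D3:**
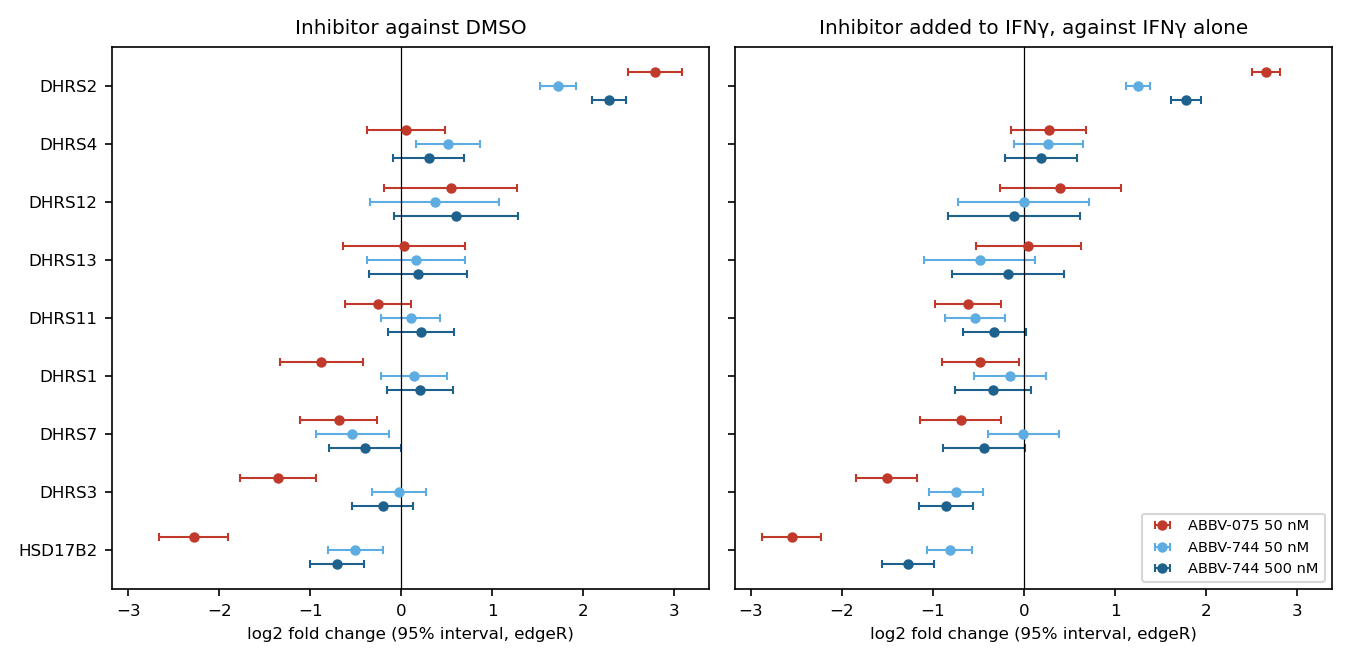
Log2 fold change of the 9 members for each inhibitor against DMSO (left) and added to IFNγ against IFNγ alone (right), with 95% intervals from edgeR (n = 3 libraries per group). DHRS2 stands furthest to the right, from 1.25 to 2.79, HSD17B2 and DHRS3 lie furthest to the left with ABBV-075, and the values of DHRS2 and HSD17B2 describe how they were chosen.

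In the presence of IFNγ the relatives again fell or did not pass. Adding ABBV-075 lowered 3 of the 7, DHRS3, DHRS7 and DHRS11, where 56.6% of all genes passed (28.4% downwards). Adding ABBV-744 lowered 2 of the 7 at 50 nM, DHRS3 and DHRS11, where 51.7% of genes passed (24.3% downwards), and 1 of the 7 at 500 nM, DHRS3, where 45.7% passed (22.8% downwards). No relative rose in any of the 3 comparisons. DHRS3 measured 42, 36 and 40 CPM with IFNγ alone and 11.7, 15.5 and 14.8 CPM after ABBV-075 was added. This was the single value of a relative past both thresholds (log2 fold change -1.51, SE 0.17, edgeR adjusted p = 7.43e-10), and 6.17% of all genes passed both in that comparison. At the added ABBV-744 doses DHRS3 measured 25.6, 17.2 and 26.2 CPM and 21.3, 22.8 and 21.8 CPM, below IFNγ alone in every library (log2 fold changes -0.75 and -0.85, SE 0.15 for both, edgeR adjusted p = 6.34e-05 and 1.5e-05). DHRS11 measured 22.1, 24.5 and 24.9 CPM with IFNγ, 14.4, 16.9 and 15.7 CPM with ABBV-075 added, and 17.4, 13.8 and 17.1 CPM with ABBV-744 at 50 nM added. Neither treated group overlapped IFNγ alone, and the log2 fold changes were -0.61 and -0.54 (SE 0.18 and 0.16, edgeR adjusted p = 0.0033 and 0.00603). DHRS7 measured 13.6, 14.5 and 13.1 CPM with IFNγ and 8.7, 7.61 and 9.34 CPM with ABBV-075 added (log2 fold change -0.69, SE 0.22, edgeR adjusted p = 0.00723), a call that DESeq2 did not make (adjusted p = 0.0561).

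Base composition moved with these comparisons as well. When ABBV-744 at 50 nM was added to IFNγ, the fifth of genes with the lowest GC content had a median log2 fold change of 0.78 and the fifth with the highest had -0.32. With the GC correction, DHRS11 no longer passed after ABBV-075 (-0.31, edgeR adjusted p = 0.1) or ABBV-744 at 50 nM (-0.17, edgeR adjusted p = 0.431), and DHRS3 no longer passed after ABBV-744 at 50 nM (-0.34, edgeR adjusted p = 0.0546). DHRS3 still passed after ABBV-075 (-1.21, edgeR adjusted p = 8.52e-10), below the fold threshold, and after ABBV-744 at 500 nM (-0.53, edgeR adjusted p = 0.00242). The same correction brought DHRS4 past the test as a rise in all 3 comparisons with IFNγ, at 0.57, 0.61 and 0.50 (edgeR adjusted p = 0.00645, 0.00658 and 0.0329), where the uncorrected values were 0.27, 0.27 and 0.19. DHRS2 became 2.95, 1.54 and 2.06.

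At 50 nM with IFNγ, DHRS3 (log2 fold change -0.68, SE 0.18, edgeR adjusted p = 0.00339) and DHRS7 (-0.61, SE 0.22, edgeR adjusted p = 0.0246) were lower with ABBV-075 than with ABBV-744. The difference of DHRS7 was lost with DESeq2 (adjusted p = 0.13) and when ABBV-075 replicate 2, ABBV-744 replicate 2 or ABBV-744 replicate 3 of the IFNγ groups was left out (edgeR adjusted p = 0.104, 0.112 and 0.061). Between the doses of ABBV-744, 0 of the 7 relatives differed either without or with IFNγ, by edgeR and at an unadjusted p under 0.05, in comparisons that called 0.0274% and 1.7% of all genes.

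HSD17B2, which inactivates sex steroids, moved against DHRS2 in every inhibitor group. It measured 44, 51.3 and 45.6 CPM with DMSO and 9.41, 8.61 and 11.4 CPM with ABBV-075, and its log2 fold change was -2.28 (SE 0.17). With ABBV-744 it measured 36.1, 37.4 and 24.8 CPM at 50 nM and 23.3, 27.9 and 34.8 CPM at 500 nM (log2 fold changes -0.51 and -0.71, SE 0.15 for both). All of these libraries lay below all DMSO libraries. IFNγ alone raised HSD17B2 to 78, 65.5 and 60.1 CPM, a change the choice of the gene did not use (log2 fold change 0.53, SE 0.11, edgeR adjusted p = 0.00261), where 2.76% of all genes rose. From there it fell to 11.2, 14.1 and 9.34 CPM with ABBV-075, to 40.7, 37.6 and 35.6 CPM with ABBV-744 at 50 nM and to 24.3, 28.8 and 31.7 CPM at 500 nM. The log2 fold changes against IFNγ alone were -2.55, -0.82 and -1.28 (SE 0.16, 0.12 and 0.14). At 50 nM it was lower with ABBV-075 than with ABBV-744, by a log2 fold change of -1.75 without IFNγ (SE 0.22, edgeR adjusted p = 0.00057) and -1.66 with it (SE 0.17, edgeR adjusted p = 5.72e-11). Between the doses of ABBV-744 the difference did not pass (edgeR adjusted p = 0.866 without IFNγ and 0.146 with it).

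**Figure D4:**
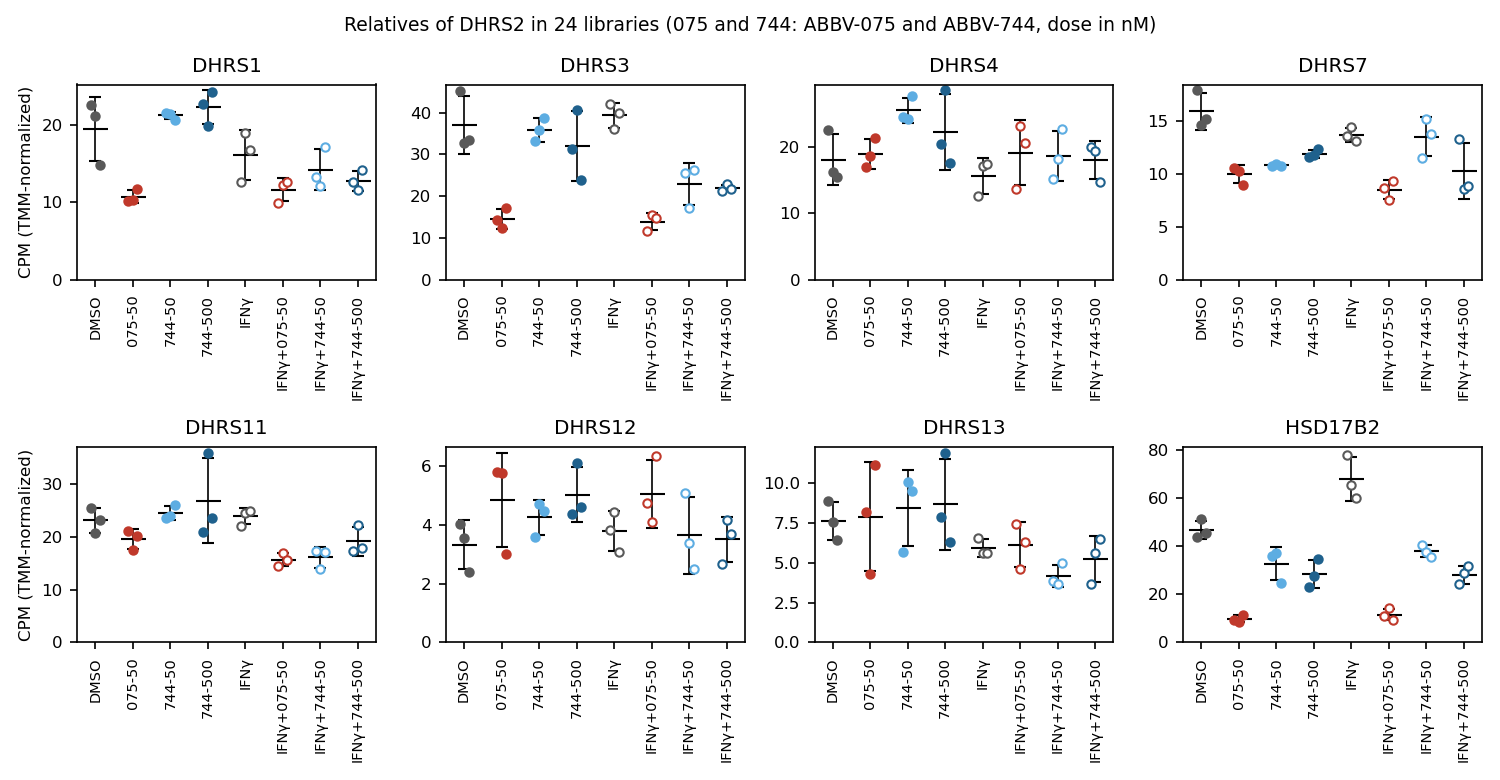
CPM (TMM-normalized) of the 8 other members in each of the 24 libraries, one panel per gene with its own axis from 0. Points are libraries (open with IFNγ), marks are group means and bars are 1 SD (n = 3); DHRS3 and HSD17B2 are lowest in both ABBV-075 groups, at 11.7 to 17.1 CPM and 8.61 to 14.1 CPM, while DHRS12 and DHRS13 reach at most 6.33 and 11.9 CPM.

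The wider SDR family was read in the same way. Of 65 further SDR genes among the counted symbols, 41 passed the filter on low counts in most comparisons and 15 had no more than 3 counts in any library. With ABBV-075 against DMSO 7 rose and 9 fell, 39% of those tested against 39.3% of all genes, and their median log2 fold change was -0.12. When ABBV-075 was added to IFNγ 7 rose and 13 fell, 48.8% against 56.6% of all genes. With ABBV-744 against DMSO 5 rose and 2 fell at 50 nM (17.5% against 18.9%), and 4 rose and 3 fell at 500 nM (17.1% against 15.3%). Added to IFNγ, ABBV-744 raised 6 and lowered 12 at 50 nM (43.9% against 51.7%), and raised 7 and lowered 11 at 500 nM (43.9% against 45.7%). The counts against DMSO depended on the libraries used, and so did those of all genes. With ABBV-075 the 16 became 9 without DMSO replicate 1 or DMSO replicate 3. All genes called there went from 4424 to 2951 and 3028, and to 5995 without ABBV-075 50 nM replicate 3. With ABBV-744 the 7 at each dose became 3 without DMSO replicate 2 or DMSO replicate 3. At 500 nM this was also so without ABBV-744 500 nM replicate 3. All genes called went from 2102 to 708 and 900 at 50 nM, and from 1700 to 793, 874 and 1003 at 500 nM. No gene of the list passed both thresholds upwards in any of the 6. The share of all genes that did so was between 0.027% and 2.41%.

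Past both thresholds downwards were BDH1, HSD3B7 and HSD11B2, in comparisons where 3.19% of all genes (ABBV-075), 3.75% (ABBV-075 added to IFNγ) and 0.82% (ABBV-744 at 500 nM added to IFNγ) were. BDH1, the mitochondrial enzyme that interconverts the ketone bodies, fell by 2.85 on the log2 scale with ABBV-075 (SE 0.28, edgeR adjusted p = 1.95e-05), by 3.28 with ABBV-075 added to IFNγ (SE 0.36, edgeR adjusted p = 5.79e-10) and by 1.59 with ABBV-744 at 500 nM added to IFNγ (SE 0.28, edgeR adjusted p = 2.08e-05). HSD3B7, an enzyme of bile acid synthesis, fell by 1.97 with ABBV-075 (SE 0.13, edgeR adjusted p = 9.73e-07) and by 2.06 with ABBV-075 added to IFNγ (SE 0.11, edgeR adjusted p = 1.34e-18). HSD11B2, which inactivates cortisol, fell by 1.61 with ABBV-075 (SE 0.35, edgeR adjusted p = 0.0035). HSD11B2 was thinly counted, with 4 to 23 counts over the 24 libraries. BDH1 had 2 to 80 counts and HSD3B7 had 139 to 1001. The retinoid enzymes of the list numbered 10, of which 4 were tested with ABBV-075 and 1 rose, RDH14 (log2 fold change 0.95, edgeR adjusted p = 0.033). RDH14 was thinly counted too, with 5 to 26 counts. Values of single genes of the SDR list were not recomputed under the alternative settings. Of the 11 steroid enzymes tested there, 3 rose and 4 fell. The shares called were 25% of the retinoid and 63.6% of the steroid enzymes, against 39.3% of all genes, of which 19.8% rose and 19.6% fell.

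The genes near DHRS2 were read against all genes, since DHRS2 was itself chosen for its large rise. Of 29 genes that start within 500 kb, 13 were tested, and their log2 fold changes with ABBV-075 ranged from -0.66 to 0.41. AP1G2, which starts 62 kb before DHRS2 and encodes an adaptor of vesicle transport, was higher by 0.36, and DCAF11, a substrate receptor of a ubiquitin ligase, was lower by 0.66; the other 11 did not pass, in a comparison that called 39.3% of all genes. The range was -0.30 to 0.59 with ABBV-744 at 50 nM, where 4 of the 13 rose and 0 fell, while 8.81% of all genes rose. It was -0.38 to 0.52 at 500 nM, where 3 of the 13 rose and 0 fell, while 7.48% of all genes rose. The medians of the 13 were 0.26 and 0.13, against 0.0006 and 0.002 over all genes. Added to IFNγ, ABBV-075 raised 1 neighbour and lowered 3 (-0.75 to 0.29, with 56.6% of all genes called). ABBV-744 raised 1 and lowered 2 at 50 nM (-0.68 to 0.42, with 51.7% called) and again at 500 nM (-0.66 to 0.32, with 45.7% called). No neighbour passed both thresholds in any of the 6 comparisons. DHRS4-AS1, the antisense transcript across the DHRS4 genes, measured 31.2 to 55.3 CPM over all libraries and rose by 0.42 and 0.32 when ABBV-744 was added to IFNγ at 50 and 500 nM (edgeR adjusted p = 0.004 and 0.0396). The libraries kept the strand, and the counts used here were those on the strand of each gene.

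**Figure D5:**
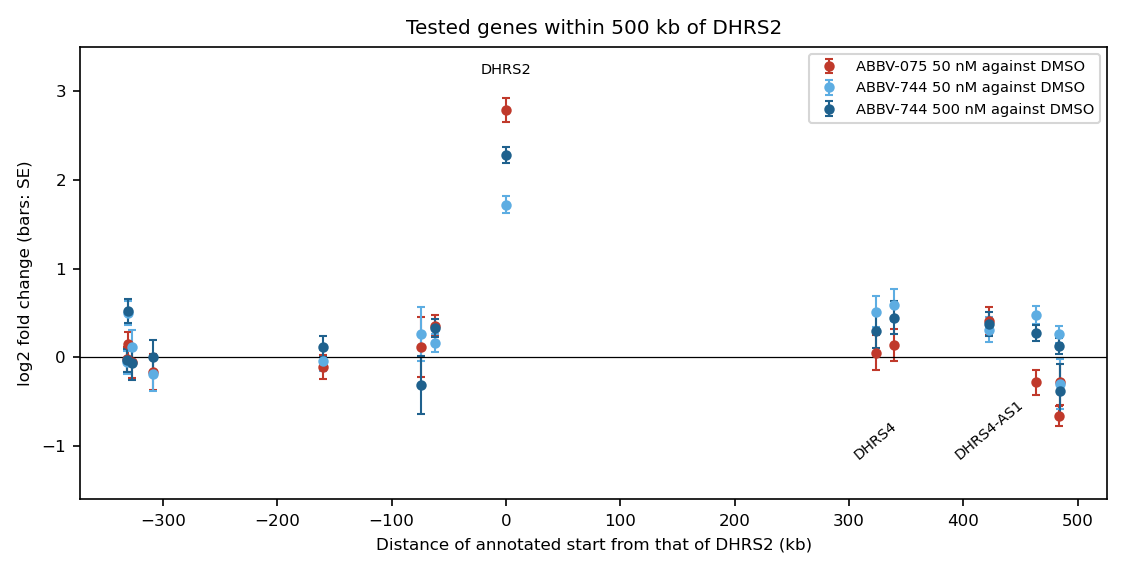
Log2 fold change against DMSO (bars, SE; n = 3 libraries per group) of DHRS2 and the 13 tested genes that start within 500 kb of it, by distance of the annotated starts in kb. DHRS2, at 0 kb, lies between 1.72 and 2.79, and every other gene lies between -0.66 and 0.59.

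The genes whose levels ran most like DHRS2 were found by Pearson's r of log2 CPM over the 24 libraries, among 9384 genes whose log2 CPM averaged 3 or more. The 5 most alike included H1F0 (r = 0.97), ITFG3 (0.95) and SKI (0.95). H1F0 encodes a linker histone and SKI a transcriptional corepressor. The libraries fall into 8 treatment groups, so these values describe a shared order of groups and have no p-value. H1F0 averaged 279 ± 4.88 CPM (SD, n = 3) with DMSO, 475 ± 16.6 and 567 ± 55.7 with ABBV-744 at 50 and 500 nM, and 761 ± 19.7 with ABBV-075, the order seen for DHRS2. Its log2 fold change with ABBV-075 was 1.42, smaller than the 2.79 of DHRS2. None of the members or of the wider SDR list was among the 5.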

How the data were processed

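The authors depleted ribosomal RNA, built strand-specific libraries, trimmed reads for adapters and poor base quality (Trimmomatic 0.33) and mapped them to GRCh38 (STAR 2.7.1). The deposited files hold counts of reads per gene symbol, with no normalization. The layout is that of STAR's gene counts, which leave out reads with several alignments. The annotation used for counting was not given in the sources used here. The column for each gene's own strand was analysed.

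All 24 libraries were grouped by their labels. Differential expression was tested in R 4.3.3 with edgeR 4.0.16 (filterByExpr, TMM, quasi-likelihood test without covariates, on the libraries of the groups compared, or of 4 groups for interactions). P-values were adjusted over all genes tested by Benjamini-Hochberg, and a gene changed at an adjusted p of at most 0.05. The SE is the log2 fold change divided by the square root of F. Intervals are 95%. Reads carried no molecular identifiers, so counts are of reads and not of molecules. Positions, lengths and GC content came from GENCODE for 24531 of 26475 symbols (1370 of them through a synonym), and promoters from RefSeq. GC values covered 98.4% to 98.6% of the genes tested.

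The members and lists were chosen with earlier results of these data known. Genes named are the 9 members, the DHRS4 copies, genes of the SDR list and within 500 kb of DHRS2 past both thresholds (at most 6 in each direction), the 5 genes most like DHRS2 (some are not reported here), and genes that check the labels. CCDC144NL, AP1G2, DCAF11 and RDH14 were chosen after their values were seen. The SDR list numbers 65 genes, in retinoid, steroid, carbonyl and fatty acid, and extended classes.

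Alternatives were RLE normalization, library size only, no filter, at least 10 counts in every library, DESeq2 1.42.0, all 24 libraries in the fit, counts of both strands, the replicate block, a GC correction (lowess with a span of 0.3 on each gene's GC content), this correction with the block, and each library left out. The replicate numbers come from the titles. Of 20 pairs of groups, 1 had all 3 same-numbered correlations over 0.1, ABBV-744 at 500 and 50 nM (r = 0.39, 0.50 and 0.10). On simulated counts for ABBV-075 against DMSO (11128 genes), the test called 99% of 98 genes changed by 1.5, 71.7% of 99 genes changed by 0.8 and 8 of 10931 unchanged genes. The simulation gave all genes the same spread between replicates and held no trend with GC content. These rates need not hold in the data, where 39.3% of genes were called.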

Additional observations from a re-analysis of the deposited data

Results flagged for a closer look

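Among the 9 members, 6 differences between the effect of ABBV-744 with and without IFNγ passed the interaction test (edgeR, n = 3 libraries in each of 4 groups). All 6 were negative, so the change was lower or the fall deeper with IFNγ. At 50 nM they were those of DHRS2 (-0.50, adjusted p = 5.88e-05), DHRS3 (-0.75, adjusted p = 0.00468) and DHRS11 (-0.67, adjusted p = 0.0105). At 500 nM they were those of DHRS2 (-0.48, adjusted p = 3.68e-04), DHRS3 (-0.63, adjusted p = 0.0354) and HSD17B2 (-0.55, adjusted p = 0.0392). The interaction was called for 51.6% of all genes at 50 nM (26.5% downwards) and for 33.5% at 500 nM (15% downwards). For ABBV-075, 0 of the 7 relatives passed by edgeR or had an unadjusted p under 0.05, and 0.0347% of genes were called. The replicates of ABBV-075 alone were further apart than those of the other groups.

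With the GC correction the values of DHRS3 were -0.16 and -0.19 and that of DHRS11 was -0.14, and none of the 3 passed (edgeR adjusted p = 0.632, 0.595 and 0.696). HSD17B2 became -0.78 and still passed (edgeR adjusted p = 0.00234), but it did not pass when any replicate number was left out (-0.66 to -0.36), with DESeq2 (adjusted p = 0.0813), with library size only, with all 24 libraries, with counts of both strands or with at least 10 counts in every library (edgeR adjusted p = 0.103, 0.0664, 0.0548 and 0.056). At 50 nM, DHRS3 did not pass without replicate 2 or 3, and neither did DHRS11, which was also lost with DESeq2 (adjusted p = 0.0627) and library size only (edgeR adjusted p = 0.0623). At 500 nM, DHRS3 did not pass when any replicate number was left out, with DESeq2 (adjusted p = 0.0762), with library size only or with all 24 libraries (edgeR adjusted p = 0.078 and 0.0555).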

How the results depend on the processing

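Of 955 values recomputed under an alternative, 849 kept their direction and side of the threshold, or for counts and untested values stayed within the range allowed. The 6 differences of DHRS2 from its controls were positive in every alternative. Of 79 member values that did not pass, 35 changed sign in at least one alternative and 6 passed in at least one.

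The difference of DHRS2 between the doses of ABBV-744 without IFNγ passed at 0.59 with library size only, 0.57 without a filter, 0.57 with DESeq2, 0.57 with all 24 libraries, 0.56 with the replicate block, 0.60 with the GC correction and 0.60 with the correction and the block; with libraries left out it was 0.53 to 0.60. In that comparison 3 genes were called, 320 with the replicate block and 137 with the block and the correction. The interactions of DHRS2 with ABBV-744 did not pass with the GC correction (-0.11 at 50 nM and -0.14 at 500 nM) or with the correction and the replicate block (-0.11 and -0.14), and were -0.53 to -0.44 and -0.49 to -0.40 with a replicate left out.

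The count of the 7 relatives that changed with ABBV-744 at 50 nM fell from 1 to 0 with DESeq2, the replicate block, the GC correction and both together, and was 0 to 1 with a library left out. Added to IFNγ, it was 1 instead of 2 with the GC correction at 50 nM, and 2 instead of 1 with the correction, and with the correction and the block, at 500 nM (1 to 2 with a library left out). Of the SDR list, 4 instead of 7 changed with ABBV-744 at 50 nM with DESeq2, the GC correction, and the correction with the block (3 to 10 with a library left out), and at 500 nM 2 with DESeq2 and 4 with the replicate block (3 to 6). With ABBV-075, 9 to 20 changed with a library left out (9 without DMSO replicate 1 or 3). With IFNγ against DMSO, 1 instead of 3 changed with all 24 libraries (1 to 3, the lowest without DMSO replicate 3). With counts of both strands DHRS4 was -0.024 with ABBV-075 and -0.10 with ABBV-075 added to IFNγ, and with libraries left out it was -0.047 to 0.23 in the first. The causes of these shifts were not tested.

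The replicate block changed no other call of a DHRS2 contrast. Counts of all genes called with ABBV-744 at 50 nM were 2102, and 1139 with DESeq2, 1204 with the GC correction and 869 with the correction and the block; at 500 nM they were 1700 and 982 with DESeq2. The interactions were called for 5905 and 3827 genes, and for 2328 and 1885 with the GC correction. DHRS12 and DHRS13 rested on 8 to 37 counts per library.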
